A study of Danio rerio with 17 samples.

Results

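Liver RNA of female and male zebrafish kept on a diet without carbohydrate was compared, 5 females against 4 males. The 9 arrays were chosen by their titles from 17 in all. Both sexes were also fed 25% carbohydrate in the study, and the 8 arrays of the 25% diet were not used. Each array holds total RNA from the liver of 1 numbered fish: females 7, 8, 10, 25 and 27, and males 11, 26, 30 and 66. All 9 fish shared the 0% diet, so diet does not differ within the comparison. Strain, age and the time since the last meal are not given in the sources used here. The series description gives 3 males on 0% and 4 on 25%, whereas the titles give 4 and 3, and the titles were followed.

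In egg-laying vertebrates the liver of a reproducing female makes the egg's yolk. Oestradiol from the ovary binds oestrogen receptors in hepatocytes and turns on the vitellogenin genes, whose products are translated on the rough endoplasmic reticulum, loaded with lipid and phosphate, passed through the Golgi and secreted into the blood for uptake by oocytes. Males carry the same genes and normally leave them nearly silent. A diet without carbohydrate makes the liver supply glucose from amino acids and other precursors, so genes of amino acid breakdown, gluconeogenesis and lipid synthesis are of interest beside those of yolk.

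The deposited values are log2 signals per probe set, and array medians lay between 3.54 and 3.59. A difference of 1 on this scale is 2-fold. Without detection calls, signals near or below the array median could be background, and differences measured from them have no exact size. The 12 measured hepatocyte markers averaged 11.89 to 12.36 on every array. Males 11 and 66 stood apart. Their intestinal marker means (28 genes) were 7.38 and 7.23, against 4.51 to 4.71 in the other 7 fish, and their exocrine pancreas means (23 genes) were 10.68 and 10.42, against 6.48 to 8.53. Male 66 was also highest for endocrine pancreas (14 genes, 5.03 against 3.20 to 3.71 elsewhere). The first principal component, 39.8% of the variance, separated these 2 males from the rest. Pairs of females correlated at 0.971 to 0.979 across probe sets and pairs of males at 0.942 to 0.981. Total counts, and those of many lists, are therefore given with and without males 11 and 66. Where only 1 count is given, it is from all 9 fish. In bulk tissue, fewer cells of a type and less RNA per cell cannot be told apart.

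Differences are female minus male on the log2 scale with their standard error, from limma fitted to all 15502 probe sets, and a probe set was called when its Benjamini-Hochberg adjusted p was under 0.05. The fit called 337 probe sets (2.17%), 219 higher in females (1.41%) and 118 lower (0.761%). At least 2-fold differences made up 71 of the higher calls (0.458%) and 23 of the lower ones (0.148%). In all 337 the values of the 5 females and 4 males did not overlap. With each gene represented by its brightest probe set, 165 of 8793 genes were higher (1.88%) and 79 lower (0.898%). Groups did not overlap for 578 genes with females above (6.57%) and 290 with females below (3.30%). The median difference was 0.02 over all genes, and 4654 of the 8793 lay above 0. Higher calls were 65.0% of the total. They were 77.7% after quantile normalization and 43.2% without males 11 and 66, where 99 probe sets were higher and 130 were lower. Of the 219 higher calls 76 were also called without those fish, and of the 118 lower calls 34 were. That fit compared the 5 females with males 26 and 30 only, so a call lost in it need not mean a smaller difference. Among lost calls, cebpg stood at -0.75 with all fish and -0.74 without those males, and ier5 at -1.34 and -0.95.

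**Figure D1:**
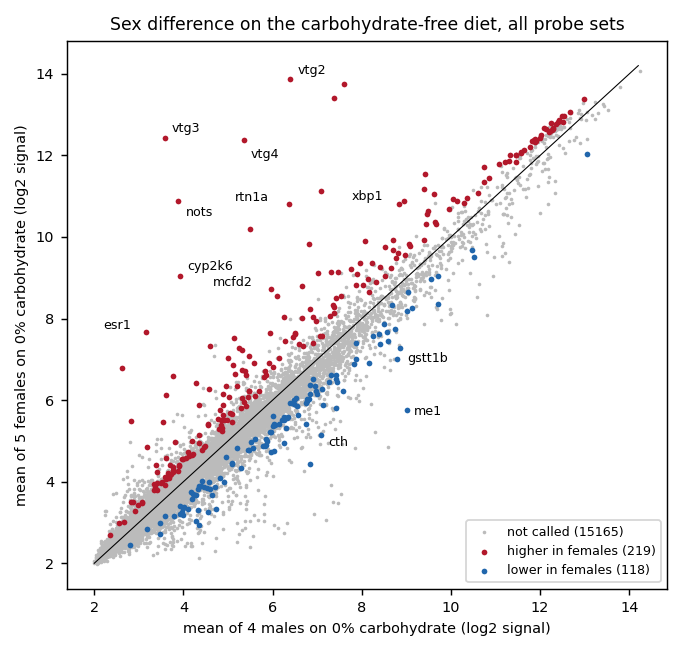
Mean log2 signal of the 4 males (horizontal) against that of the 5 females (vertical) for each probe set. Red points were called higher in females (219), blue points lower (118) and grey points were not called; the line marks equal means, and vtg2, vtg3, vtg4 and nots lie farthest above it.

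Vitellogenins are the large lipid-carrying yolk precursors, and each of the 3 measured with a probe set of their own was called higher in females. Vtg3 read 12.54, 12.58, 12.50, 12.11 and 12.42 in females 7, 8, 10, 25 and 27, and 4.20, 3.98, 3.39 and 2.75 in males 11, 26, 30 and 66, and later values follow this order of fish. The difference was 8.85 ± 0.27 (adjusted p = 9.09e-07), with 2 of the 4 males below the array median. Vtg2 read 13.87, 13.89, 13.77, 13.84 and 13.93 in females and 9.39, 5.72, 6.45 and 4.00 in males. The difference was 7.47 ± 0.86 (adjusted p = 0.00609). The brightest probe set on each female array read 13.99 to 14.19, so the females were near the top of the measured range and the size is not exact. Vtg4 read 12.46, 12.57, 12.26, 12.06 and 12.53 in females and 7.08, 4.66, 5.54 and 4.11 in males (7.03 ± 0.51, adjusted p = 0.000381). No female overlapped a male for any of the 3. Male 11 was the highest male and male 66 the lowest for each of these genes. Both fish carried the raised intestinal and pancreatic markers, and the part of other tissues in the vitellogenin levels was not tested. A further pair of probe sets, whose annotation lists several vitellogenin genes and which were assigned to none, differed by 6.16 ± 0.93 and 6.02 ± 0.81. On the first of them males read 10.09, 7.32, 8.57 and 4.40, with male 11 again highest and male 66 lowest. Leaving out males 11 and 66, the differences were 8.75 for vtg3, 7.77 for vtg2 and 7.28 for vtg4, and each kept its call.

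Among oestrogen receptors, esr1 separated the sexes most. Esr1, the receptor through which oestrogen acts on vitellogenin genes in fish liver, read 7.41, 8.13, 7.79, 7.88 and 7.12 in females and 3.11, 3.27, 3.16 and 3.12 in males. All 4 males lay below the array median, so the size is not exact. The difference was 4.50 ± 0.19 (adjusted p = 4.15e-06), and a second probe set gave 4.17. Esr2b, a beta-type receptor, read 6.73, 6.59, 6.44, 7.19 and 6.68 in females and 5.996, 5.55, 5.09 and 4.62 in males (1.41 ± 0.26, adjusted p = 0.0323). Esr2a, the other beta-type receptor, differed by 0.41 ± 0.14 and did not pass (adjusted p = 0.166), its groups overlapped, and a second probe set gave -0.26 (adjusted p = 0.833).

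Of 6 measured genes on the list of oestrogen receptors and oestrogen-responsive liver genes, 4 were called higher (against 1.88% of all genes) and none lower. The members of this and the other lists were chosen with earlier results of these data known, so such shares are no independent test. Nots encodes nothepsin, an aspartic protease made in the liver of female zebrafish. It read 11.25, 10.93, 11.05, 10.13 and 10.99 in females and 3.76, 3.87, 4.25 and 3.66 in males, a difference of 6.99 ± 0.22 (adjusted p = 9.09e-07). Female 25 was the lowest of the females for nots, vtg3 and vtg4. Hdlbpa encodes vigilin, an RNA-binding protein known in Xenopus for binding vitellogenin mRNA. It read 11.79, 11.73, 11.72, 11.66 and 11.67 in females and 10.39, 11.12, 10.89 and 10.56 in males (0.97 ± 0.14, adjusted p = 0.0123).

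**Figure D2:**
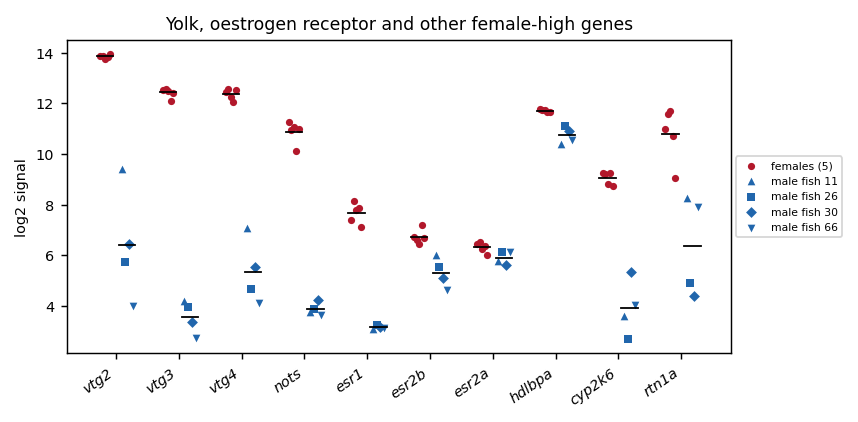
Log2 signal of each fish for vitellogenins, nots, the oestrogen receptors, hdlbpa, cyp2k6 and rtn1a. Red circles are the 5 females, blue symbols the 4 males by fish, and bars the group means. Among the genes shown, the groups overlap only for esr2a.

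Ovary markers were low, and none was called. The 32 measured markers averaged 3.69, 4.49, 3.55, 4.13 and 3.61 in females and 3.27, 3.44, 3.52 and 3.34 in males. All 32 lay above 0 with a median difference of 0.51, the groups did not overlap for 6 (against 6.57% of all genes with females above), and 8 were below the array median on all 9 arrays. Zp2.6, an egg coat gene and among the brightest of them, read 5.20, 8.19, 4.95, 7.54 and 5.18 in females and 4.44, 4.03, 5.85 and 4.51 in males. Females 8 and 25 thus stood high, while females 7, 10 and 27 overlapped the males. The lowest female ovary mean, 3.55 in female 10, lay 0.03 above the highest male mean, 3.52 in male 30. Female 10 read 12.50 for vtg3 and 7.79 for esr1. Female 8, with the highest ovary mean of 4.49, read 12.58 and 8.13. Female 25 (ovary mean 4.13) read 12.11 and 7.88, female 7 (3.69) 12.54 and 7.41, and female 27 (3.61) 12.42 and 7.12. A second esr1 probe set was highest in females 8 and 25, at 7.25 and 7.08. It read 6.48, 6.64 and 6.50 in females 7, 10 and 27. Testis and germ cell markers (22 genes) averaged 3.20 to 3.49 in females and 3.01 to 3.24 in males, with none called. The part of carried-over gonad RNA in the female-high calls, vtg3 and esr1 included, was not tested.

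The rough endoplasmic reticulum takes nascent secreted proteins in through the Sec61 channel, folds and trims them, and hands them to vesicles bound for the Golgi. Of 59 measured genes for translocation, folding and modification, 53 lay above 0 with a median of 0.44. Of these 59, 6 were called higher and none lower, or 10.2% against 1.88% of all genes called higher, and the groups did not overlap for 19 (against 6.57% of all genes). The list's median was 0.46, with 5 called, when males 11 and 66 were left out. Ssr3 and ssr2 are subunits of the translocon-associated protein complex. Ssr3 read 11.02, 11.08, 11.41, 10.96 and 10.83 in females and 9.29, 9.87, 9.90 and 9.42 in males (1.44 ± 0.16, adjusted p = 0.00577). Ssr2 differed by 1.16 ± 0.15 (adjusted p = 0.0083), with every female above every male. The other calls were dnajc3a, an ER co-chaperone (1.18), pdia3, a disulphide isomerase of glycoproteins (0.89), prkcsh, the beta subunit of glucosidase II (0.88), and srp68 of the signal recognition particle (0.75). Dnajc3a did not pass without males 11 and 66 (adjusted p = 0.0932).

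Transport from the ER to the Golgi held the largest difference among secretory genes, mcfd2, beside a list median near 0. Of 42 measured genes 6 were called higher (14.3% against 1.88% of all genes) and none lower, while the median was -0.01 and 22 lay below 0. Mcfd2 and lman1 encode partners of 1 cargo receptor, known in humans for carrying coagulation factors out of the ER. Mcfd2 read 8.49, 8.73, 9.19, 8.57 and 8.61 in females and 5.64, 6.23, 5.87 and 6.10 in males, a 6.76-fold difference (2.76 ± 0.17, adjusted p = 0.000102). Lman1 read 7.57, 6.96, 7.90, 8.30 and 7.49 in females and 5.67, 6.002, 6.13 and 5.93 in males (1.71 ± 0.24, adjusted p = 0.0113). Neither gene overlapped between the sexes. The p24 cargo proteins tmed3 (1.41) and tmed10 (0.98), the SNARE gosr2 (0.79) and the COPI coat subunit copg2 (0.52) were the other calls. Further probe sets of tmed3 gave 1.16 (adjusted p = 0.0496) and 0.81 (adjusted p = 0.104, not called). For copg2, 2 further probe sets differed by -0.17 and 0.22 and were not called. Of the 6, only mcfd2 without males 11 and 66 kept its call (2.66, adjusted p = 0.00185), and lman1 stood at 1.58 (adjusted p = 0.0618).

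Of 9 unfolded protein response factors 2 were called, both higher (against 1.88% of all genes). The list's median was 0.00, with 5 above 0 and 4 below, and its lowest difference was -1.32. Xbp1, the transcription factor that expands the secretory pathway, read 10.47, 11.20, 11.05, 10.83 and 10.47 in females and 8.19, 8.82, 8.97 and 9.35 in males (1.97 ± 0.24, adjusted p = 0.00735). Its lowest female lay 1.12 above its highest male. Eif2ak3, the ER stress kinase that slows translation, read 5.46, 5.48, 5.62, 5.50 and 5.05 in females and 4.67, 4.59, 4.33 and 4.61 in males (0.86 ± 0.12, adjusted p = 0.0125), and 2 dimmer probe sets of the gene were not called. Several called genes outside the lists, picked after their values were seen, also belong to the ER. They were sec61a1b, the channel itself (1.60 ± 0.27), rrbp1a, a ribosome receptor (1.37 ± 0.20), serp1, which binds the channel (1.21 ± 0.16), tmco1 (1.16 ± 0.16) and ost4 of the oligosaccharyltransferase (0.76 ± 0.15).

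**Figure D3:**
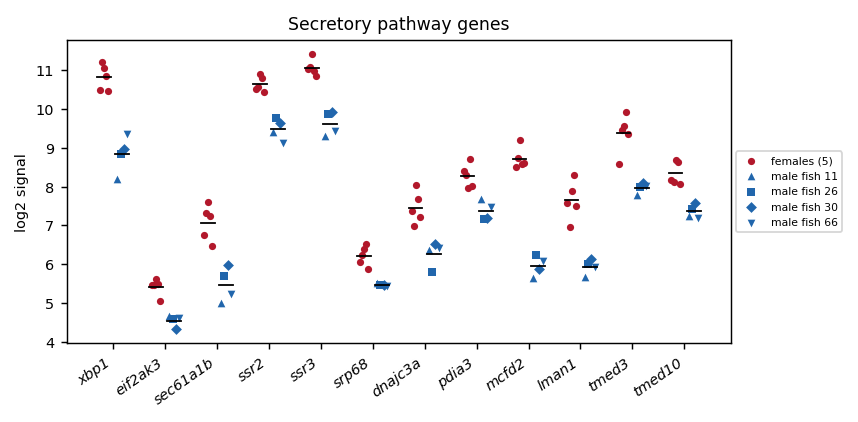
Log2 signal of each fish for xbp1, eif2ak3, translocation and folding genes, and ER to Golgi cargo genes. Red circles are the 5 females, blue symbols the 4 males and bars the group means; the groups do not overlap for any of the 12 genes, and mcfd2 shows the widest gap.

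All 75 measured cytosolic ribosomal protein genes lay above 0, from 0.02 to 0.88 with a median of 0.36, and 29 were called higher (38.7% against 1.88% of all genes). Groups did not overlap for 59 of the 75, against 6.57% of all genes. The list averaged 12.31, 12.42, 12.42, 12.30 and 12.31 in females and 11.92, 11.998, 12.12 and 11.94 in males, so the lowest female exceeded the highest male by 0.18. Rpl22l1, a paralogue of the large-subunit protein rpl22, was highest at 0.88 ± 0.09 (adjusted p = 0.00455), from 10.98, 11.10, 10.87, 10.85 and 10.85 in females to 9.85, 9.99, 10.19 and 10.18 in males. Rpl27a stood at 0.61 ± 0.10, rpl14 at 0.56 ± 0.08 and rpl5a at 0.55 ± 0.07, all of the large subunit. Without males 11 and 66 the median was 0.26 and 5 genes were called, and neither rpl27a (adjusted p = 0.0712) nor rpl14 (adjusted p = 0.0526) was among them. After quantile normalization 18 were called. Of 59 mitochondrial ribosomal protein genes 1 was called higher (against 1.88% of all genes), mrpl30 at 0.50 ± 0.11, and their median was -0.04. Mrpl30 was not called without males 11 and 66 (adjusted p = 0.138), and 2 other genes of that list were called lower.

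Translation factors held 16 higher calls and none lower among 67 measured genes (23.9% against 1.88% of all genes), with a median of 0.10. The count was 6 without males 11 and 66. Both counts include eif2ak3, the kinase already counted above among the unfolded protein response factors. Eif5a2, which helps ribosomes past difficult peptide bonds, read 9.90, 10.26, 9.72, 9.83 and 9.91 in females and 8.56, 8.97, 8.83 and 8.46 in males (1.22 ± 0.14, adjusted p = 0.00577), and a second probe set gave 0.35 without a call. Eif2s1b, the alpha subunit of the factor that brings the initiator tRNA, differed by 0.95 ± 0.16, and eif4a1b, an initiation helicase, by 0.86 ± 0.16, and neither passed without those 2 males (adjusted p = 0.103 and 0.0937). Of 14 measured subunits of initiation factor eIF3, a family singled out after its values were seen, 7 were called higher (against 1.88% of all genes), and the family ran from -0.33 to 0.75. Among 17 aminoacyl tRNA synthetases, which charge tRNAs, aars1 (0.98 ± 0.16) and farsa (0.53 ± 0.10) were called higher (against 1.88% of all genes). Neither kept its call without males 11 and 66 (adjusted p = 0.0632 and 0.0932).

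Ribosome assembly genes were gathered after their values were seen. Of 39 measured, 8 were called higher (against 1.88% of all genes) and none lower, 37 lay above 0 and the median was 0.23. They included the nucleolar helicase ddx21 (1.25 ± 0.22), the GTPase gtpbp4 (1.10 ± 0.18) and bop1 (0.62 ± 0.09), which acts in large-subunit maturation, though 3 other probe sets of bop1 (0.30 to 0.48) were not called. The 8 measured subunits of the CCT chaperonin, which folds actin and tubulin and was likewise gathered afterwards, lay between 0.25 and 1.08. Of these cct2 (1.08 ± 0.09) and cct8 (0.86 ± 0.13) were called (against 1.88% of all genes), and a second probe set of cct2 gave 0.51 without a call. Cytosolic heat shock proteins held 1 higher call among 31 (against 1.88% of all genes), hsp90ab1 at 0.40 ± 0.08. A second probe set (0.11) and the fit without males 11 and 66 (adjusted p = 0.122) did not call hsp90ab1.

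Of 61 measured cell division genes, 2 were called higher (against 1.88% of all genes) and none lower. The median was 0.17, 52 of the 61 lay above 0, and 18 were below the array median on all 9 arrays. Ccnd1, the cyclin of the start of the cell cycle, read 6.47, 6.98, 7.47, 6.75 and 6.84 in females and 5.81, 5.68, 5.52 and 5.28 in males (1.33 ± 0.19, adjusted p = 0.0129), and a second probe set gave 0.40 without a call. Mcm3, part of the replicative helicase, differed by 0.48 ± 0.10, and by 0.17 without a call on a second probe set. Neither kept its call without males 11 and 66 (adjusted p = 0.051 and 0.178). Oocytes also express cell-cycle genes, and the ovary marker means given above were higher in females too. In females 7, 8, 10, 25 and 27 those means were 3.69, 4.49, 3.55, 4.13 and 3.61. Mcm3 read 4.33, 4.25, 4.35, 4.06 and 3.955 in the same fish. Both genes were highest in female 10, which had the lowest female ovary mean. The part of ovary RNA in these calls was not tested.

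The other genes among the 20 highest calls included a P450 enzyme, lipid enzymes and transporters. Cyp2k6, a cytochrome P450 gene, read 9.26, 9.19, 8.80, 9.25 and 8.74 in females and 3.59, 2.71, 5.33 and 4.02 in males (5.14 ± 0.44, adjusted p = 0.00112). It was the only call among 39 measured P450 genes (against 1.88% of all genes called higher), whose median was 0.06. Without males 11 and 66, 1 P450 gene was called higher and 2 lower. Rtn1a, a reticulon of ER membranes, read 10.98, 11.59, 11.70, 10.69 and 9.05 in females and 8.25, 4.93, 4.39 and 7.91 in males. Males 11 and 66 stood above males 26 and 30, and the difference was 4.43 ± 0.90 with all fish (adjusted p = 0.0409) and 6.15 without those 2 (adjusted p = 0.0115). Lpgat1, an acyltransferase of lysophospholipids, read 8.24, 8.95, 8.52, 8.82 and 8.21 in females and 6.07, 5.59, 6.30 and 6.45 in males (2.45 ± 0.21, adjusted p = 0.00125). Agpat4, another acyltransferase of glycerolipids, was called at 1.68 ± 0.17, while a second probe set gave 0.83 (adjusted p = 0.135). They were the 2 calls among 11 measured members of these families (against 1.88% of all genes), gathered after their values were seen. Lmf2b, of the lipase maturation factor family, differed by 2.13 ± 0.26 (adjusted p = 0.00735), and a second probe set, also called, gave 0.85 (adjusted p = 0.0167).

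Of 139 measured solute carriers, 4 were called higher (against 1.88% of all genes) and 2 lower (against 0.898%). These counts are small, and no trait of the family is read from them. On all 9 arrays 50 of the solute carriers were below the array median. Their median was 0.03. Without males 11 and 66, 4 were higher and none lower. Slc43a1a, a transporter of large neutral amino acids, read 4.85, 6.42, 6.35, 5.15 and 4.62 in females and 2.70, 2.71, 2.91 and 2.95 in males (2.66 ± 0.38, adjusted p = 0.0129). All 4 males were below the array median, so its size is not exact, and it did not pass without males 11 and 66 (2.67, adjusted p = 0.0618). Slc20a1b, a sodium-phosphate cotransporter, read 8.95, 9.38, 9.27, 9.14 and 8.84 in females and 6.55, 7.65, 6.93 and 6.97 in males (2.09 ± 0.21, adjusted p = 0.00323). A phosphate cotransporter of the other family, slc34a2b, ran the opposite way at -1.26 ± 0.24 (adjusted p = 0.0331). Slc39a7, which releases zinc from the ER (1.15 ± 0.17), and slc25a26, the mitochondrial carrier of S-adenosylmethionine (0.77 ± 0.14), were the other higher calls. Slc25a48, a mitochondrial carrier, was lower at -1.77 ± 0.35, and neither it nor slc34a2b passed without males 11 and 66 (adjusted p = 0.0745 and 0.0643).

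Further high calls were aqp12, an aquaporin (2.12 ± 0.29, and 1.94 on a second probe set), gnai2b, an inhibitory G protein alpha subunit (2.03 ± 0.20), pim2, a growth-promoting kinase (2.40 ± 0.46), and cpn1, the catalytic chain of plasma carboxypeptidase N (1.83 ± 0.37). Pim2 was spread from 6.21 to 8.60 among females and lay between 4.69 and 5.45 in males, and it did not pass without males 11 and 66 (adjusted p = 0.117). Rarres3l (2.13 ± 0.34), fam49ba (2.04 ± 0.39) and zgc:113054 (2.50 ± 0.34) complete the 20, and no overlap between the sexes occurred in any of them. Among these 3 zgc:113054 did not pass without males 11 and 66 (2.16, adjusted p = 0.0618). Gyg1a, a glycogenin that primes glycogen chains, was called at 1.67 ± 0.23 and was named after its value was seen, but a second probe set gave 0.23 (adjusted p = 0.568).

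**Figure D4:**
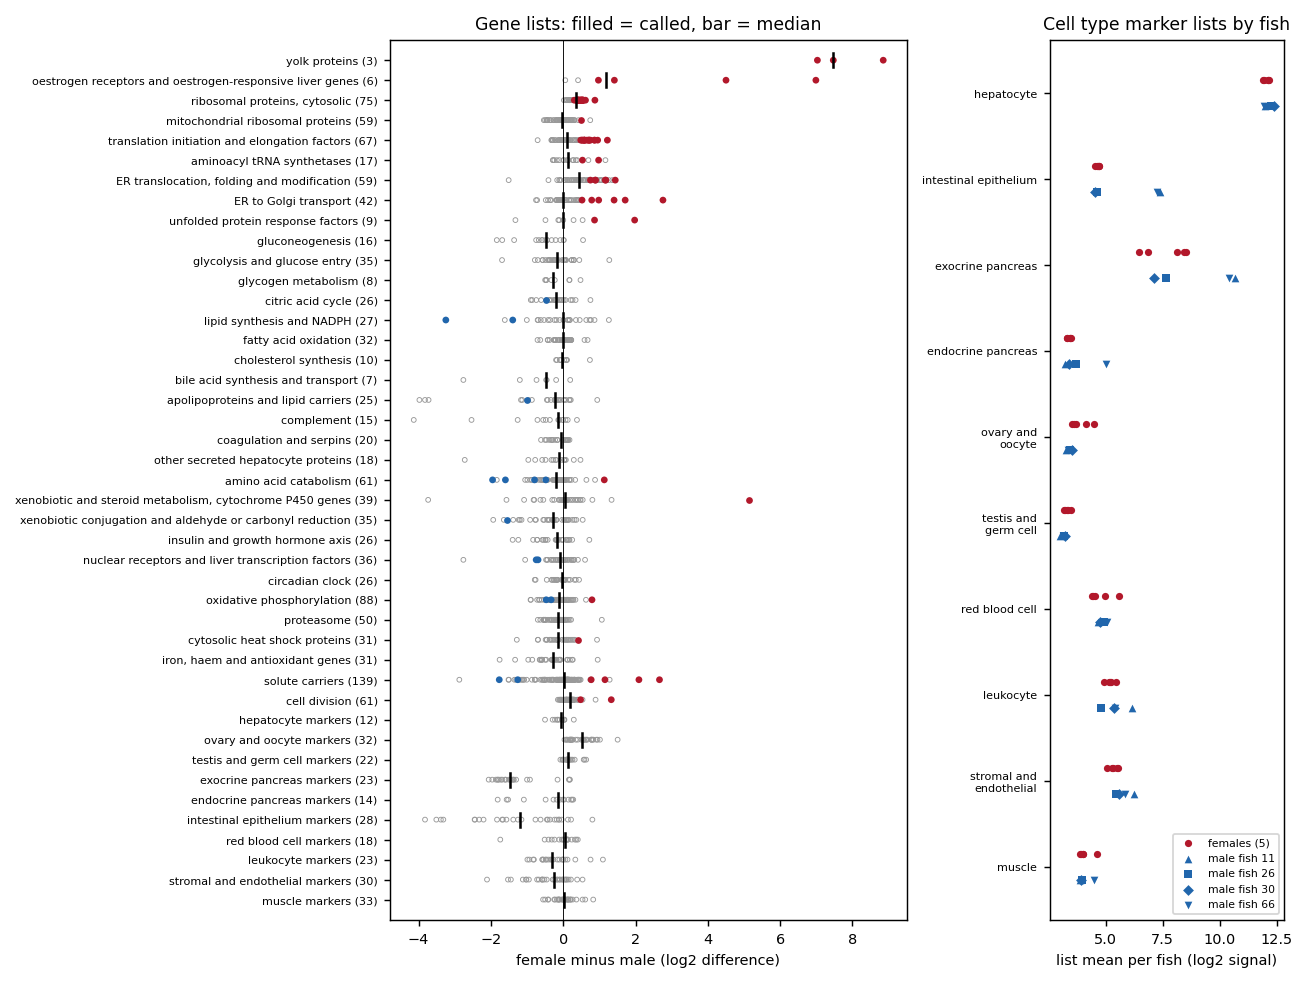
Left, female minus male difference (log2) of every measured gene by list, with the number measured in brackets, filled points called (red higher, blue lower in females) and bars at list medians. Right, mean log2 signal of each cell type marker list by fish; males 11 and 66 stand to the right of the other fish for intestine and exocrine pancreas.

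With all 9 fish 79 genes were called lower in females, fewer than the 165 called higher, whereas without males 11 and 66 lower probe sets (130) outnumbered higher ones (99). Me1 encodes cytosolic malic enzyme, a source of NADPH for lipid synthesis. It read 5.96, 5.26, 5.31, 6.88 and 5.38 in females and 8.62, 9.46, 9.03 and 8.92 in males. Every male lay at least 1.74 above the highest female, female 25. The difference was -3.25 ± 0.34 (adjusted p = 0.00405), or 9.5-fold, and a second probe set gave -2.40. It was -3.49 without males 11 and 66 (adjusted p = 0.0169). Of 27 measured genes of lipid synthesis and NADPH, 2 were called, both lower (against 0.898% of all genes), and the median was 0.00. Beside me1 this was dgat1a, which makes triglyceride, at -1.40 ± 0.26 with all 5 females below the array median. Dgat1a did not pass without males 11 and 66 (adjusted p = 0.113), where the list held 3 lower calls and 1 higher.

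Enzymes on the route from methionine to cysteine were among the lower calls. Cbsb, a cystathionine beta-synthase, read 6.10, 4.92, 5.82, 6.23 and 6.01 in females and 7.73, 7.61, 7.06 and 7.27 in males (-1.60 ± 0.26, adjusted p = 0.0208). A second probe set of cbsb, below the array median in all 9 fish, differed by -0.16 and was not called. Cth, the cystathionine gamma-lyase that follows it, read 5.28, 4.69, 4.99, 5.51 and 5.21 in females and 8.07, 7.05, 6.80 and 6.44 in males (-1.96 ± 0.31, adjusted p = 0.018). The sexes did not overlap for either gene. Cdo1, the dioxygenase that oxidises cysteine, was lower by the fit as well (-0.80 ± 0.13, adjusted p = 0.0228). Without males 11 and 66 cth kept its call (-1.79, adjusted p = 0.014), while cbsb (-1.52, adjusted p = 0.0884) and cdo1 (-0.67, adjusted p = 0.102) did not.

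These 3 belong to the list of amino acid catabolism, in which 4 of 61 measured genes were called lower (against 0.898% of all genes) and 1 higher. The median was -0.20, 46 of the 61 lay below 0, and the groups did not overlap, with females below, for 11 (against 3.30% of all genes). The fourth lower call was gcsha, a glycine cleavage protein (-0.48 ± 0.09). The higher call was bckdk, the kinase that switches off breakdown of branched-chain amino acids, which read 7.62, 8.24, 7.79, 8.46 and 8.05 in females and 7.03, 7.16, 7.05 and 6.35 in males (1.13 ± 0.21, adjusted p = 0.0319). Every female exceeded every male. Neither gcsha (adjusted p = 0.106) nor bckdk (0.93, adjusted p = 0.094) passed without males 11 and 66. Without those 2 fish the list held 5 lower calls and no higher one, and its median was -0.35. Of the 4 lower calls with all fish, only cth was among those 5. The list's mean was 6.98 to 7.09 in females and 7.41, 7.50, 7.33 and 7.03 in males, so male 66 lay within the range of the females.

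Gluconeogenesis, glycolysis and glycogen genes gave no calls. Of 16 gluconeogenesis genes 13 lay below 0 (median -0.47). Groups did not overlap for 4 with females below (against 3.30% of all genes) and 1 with females above (against 6.57%). The list mean was 6.07 to 6.40 in females and 6.67 to 6.85 in males, without overlap. Got1, a cytosolic aspartate aminotransferase, read 5.57, 5.28, 5.61, 5.93 and 4.89 in females and 8.18, 7.74, 6.06 and 7.20 in males and just missed the threshold (-1.84 ± 0.40, adjusted p = 0.0511), although the sexes did not overlap. Pck1, the cytosolic phosphoenolpyruvate carboxykinase, read 2.72, 2.55, 5.31, 2.74 and 2.71 in females and 5.64, 3.49, 2.99 and 7.47 in males. Its 2 high males were fish 11 and 66, those with raised intestinal and pancreatic markers, and its 1 high female was fish 10. Its difference was -1.69 ± 0.95 (adjusted p = 0.357) with all fish and -0.03 without males 11 and 66. The part of other tissues in the level of pck1 was not tested. Glycolysis and glucose entry (35 genes, median -0.17) came closest with tpi1b, a triose phosphate isomerase (-0.79 ± 0.17, adjusted p = 0.0547), and glycogen metabolism (8 genes) had a median of -0.28. When males 11 and 66 were left out, the gluconeogenesis median was -0.66 and 3 of its genes were called lower. Glycolysis and glucose entry then had a median of 0.03 with 1 lower call.

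Detoxification and plasma protein genes held single calls with all 9 fish. Gstt1b, a glutathione transferase, read 7.42, 7.09, 6.87, 7.91 and 7.16 in females and 8.54, 9.07, 8.96 and 8.86 in males (-1.57 ± 0.20, adjusted p = 0.00877). It was the only call among 35 measured genes of conjugation and carbonyl reduction (against 0.898% of all genes called lower, median -0.29). Without males 11 and 66 that list held 1 higher call and 2 lower. Apoa1a, a main protein of high-density lipoprotein, read 11.74, 11.96, 12.23, 12.54 and 11.77 in females and 13.15, 13.13, 13.03 and 12.90 in males (-1.01 ± 0.16, adjusted p = 0.0202). The highest female lay below the lowest male for both genes. Apoa1a was the only call among 25 apolipoproteins and lipid carriers (against 0.898% of all genes called lower, median -0.23). It stood at -1.04 without males 11 and 66 (adjusted p = 0.0739). Complement (15 genes), coagulation and serpins (20 genes) and other secreted hepatocyte proteins (18 genes) gave no calls with all fish, with medians of -0.14, -0.07 and -0.12. Their medians without males 11 and 66 were -0.37, -0.37 and -0.36, with 1, 3 and 1 lower calls. The complement list mean was 7.44 to 7.94 in females and 8.19 to 8.60 in males. These means did not overlap, although the groups overlapped for each of the 15 genes.

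Male 11 departed from the other males on several liver genes. Cd59a, an inhibitor of complement's membrane attack, read 3.04, 2.69, 3.70, 2.78 and 3.11 in females and 3.27, 8.16, 8.98 and 8.39 in males. Only male 11 was at the level of the females, 4 of which lay below the array median. The difference was -4.14 ± 1.03 (adjusted p = 0.0781) with all fish and -5.50 (adjusted p = 0.000363) without males 11 and 66. Cyp2k22, a P450 gene of the family of cyp2k6, read 4.58, 4.53, 4.30, 6.10 and 4.74 in females and 5.77, 9.94, 10.10 and 8.54 in males. Male 11 fell below female 25, so the groups overlapped (-3.74 ± 0.83, adjusted p = 0.0563), and without males 11 and 66 the difference was -5.17 (adjusted p = 0.00432). Igf1, the growth factor made by liver under growth hormone, read 5.95, 5.52, 5.73, 6.42 and 5.24 in females and 4.22, 7.40, 7.10 and 6.68 in males. Male 11 was the lowest of all 9 fish and the other 3 males were the highest, and the difference did not pass with all fish (-0.58 ± 0.59, adjusted p = 0.618) or without males 11 and 66 (-1.48, adjusted p = 0.0609). Fgb, the fibrinogen beta chain, was 11.55 in male 11 and 12.18 to 12.53 in the other males, and 11.55 to 11.79 in females. It differed by -0.50 (adjusted p = 0.184) with all fish and by -0.82 (adjusted p = 0.0136) without the same 2 males.

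**Figure D5:**
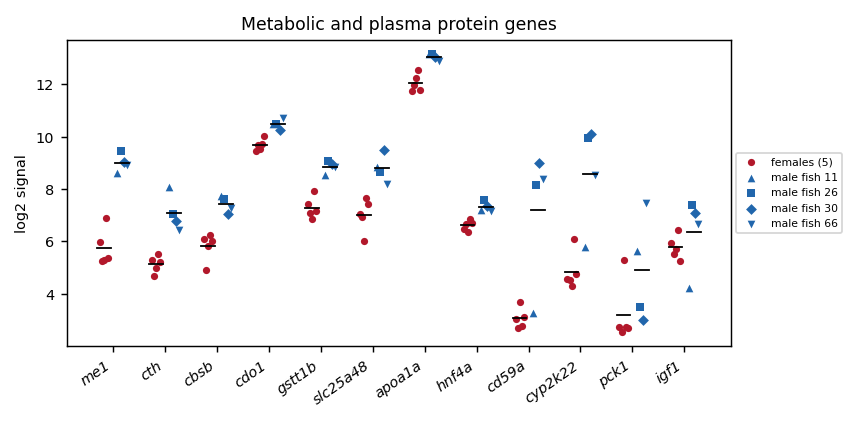
Log2 signal of each fish for genes of metabolism, transport and plasma proteins. Red circles are the 5 females, blue symbols the 4 males and bars the group means. For me1, cth, cbsb, cdo1, gstt1b, slc25a48, apoa1a and hnf4a the sexes do not overlap. Male 11 lies with or near the females for cd59a and cyp2k22, and below all of them for igf1.

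Among 36 nuclear receptors and liver transcription factors 2 were called, both lower (against 0.898% of all genes). Hnf4a, a central regulator of hepatocyte genes, read 6.49, 6.67, 6.37, 6.86 and 6.71 in females and 7.20, 7.56, 7.36 and 7.15 in males (-0.70 ± 0.12, adjusted p = 0.0249), and kept its call without males 11 and 66 (-0.84, adjusted p = 0.0422). A second hnf4a probe set, below the array median in both group means, differed by -0.29 and was not called. Cebpg, a partner of other C/EBP factors, read 5.11, 5.37, 5.07, 5.21 and 5.28 in females and 5.97, 5.74, 6.15 and 5.98 in males (-0.75 ± 0.10, adjusted p = 0.00887), and it did not pass without males 11 and 66 (-0.74, adjusted p = 0.0504). The sexes did not overlap for either factor. Nr0b2a, the small heterodimer partner of bile acid control, was -2.76 ± 0.99 (adjusted p = 0.179), with all 5 females below the array median, 6.77 and 8.99 in males 11 and 66 and 3.99 and 3.49 in males 26 and 30.

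The remaining genes among the 20 lowest calls were mostly regulators and trafficking proteins. Ywhah, a 14-3-3 adaptor protein, read 6.04, 6.41, 5.81, 6.18 and 6.66 in females and 7.63, 7.61, 7.67 and 7.37 in males (-1.35 ± 0.16, adjusted p = 0.00701). Zfp36l1b, which promotes decay of mRNAs with AU-rich elements, differed by -1.34 ± 0.24, while its paralogue zfp36l1a, looked up after its value was seen, ran the other way at 1.39 ± 0.28 (adjusted p = 0.0398). Zfp36l1b read 8.39, 7.63, 8.56, 8.98 and 8.27 in females and 9.79, 9.74, 9.88 and 9.38 in males, with no overlap. The eIF4E kinase mknk2b (-1.14 ± 0.21), the polyamine acetyltransferase sat1a.2 (-1.02 ± 0.17), the regulator of complement activation rca2.1 (-1.24 ± 0.20) and the immediate early gene ier5 (-1.34 ± 0.28) were also called. The drug efflux pump abcc4 (-1.28 ± 0.26) and gipc2 (-1.26 ± 0.25) had 4 and 5 females below the array median. Dbnlb, pdcd10a and galcb were called at -0.99, -0.94 and -0.94. When males 11 and 66 were omitted, adjusted p was 0.0632 to 0.204 for zfp36l1b, sat1a.2, rca2.1, ier5, abcc4, gipc2, dbnlb, pdcd10a and galcb, and none of these passed. On their other probe sets rca2.1 (-0.58) and 1 of 2 for mknk2b (-1.02) were not called.

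Small families looked at after their values were seen ran both ways. Chmp4bb, which builds the membrane-cutting ESCRT-III filament, read 4.79, 4.87, 4.96, 5.01 and 4.82 in females and 6.22, 5.40, 5.72 and 6.11 in males (-0.97 ± 0.16, adjusted p = 0.0202). Of 9 measured members of its family 4 were called lower (against 0.898% of all genes), the others being chmp1b (-0.70), chmp4ba (-0.52) and chmp3 (-0.40), and none was higher. Males 11 and 66 were the highest males for chmp4bb, which stood at -0.67 without them (adjusted p = 0.0422). Ubiquitin-conjugating enzymes held 3 lower calls among 27 (against 0.898% of all genes). Of 10 measured polyamine genes 2 were called higher (against 1.88% of all genes) and 2 lower (against 0.898%). The higher calls were the oxidase smox (1.54 ± 0.30, and 0.23 without a call on a second probe set) and the antizyme oaz2b (0.48 ± 0.09, and 0.10 likewise). The lower ones were sat1a.2 and the antizyme oaz1a (-0.67 ± 0.14).

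Few genes of energy metabolism were called with all 9 fish. Of 88 oxidative phosphorylation genes 1 was higher (against 1.88% of all genes) and 2 were lower (against 0.898%), with a median of -0.11. The higher call was uqcrc2a of complex III (0.79 ± 0.14). The lower ones were sdha of complex II (-0.47 ± 0.08) and atp5mf of the ATP synthase (-0.34 ± 0.07). Without males 11 and 66 the list held 6 lower calls and no higher one, and its median was -0.27. Neither uqcrc2a, sdha nor atp5mf was called there (adjusted p = 0.11, 0.126 and 0.114), and a second, dim probe set of uqcrc2a gave 0.02. Sdha was also the only call among 26 citric acid cycle genes (against 0.898% of all genes called lower, median -0.21). Fatty acid oxidation (32 genes, median -0.02), cholesterol synthesis (10 genes, -0.02), bile acid genes (7 genes, -0.47), the circadian clock (26 genes, -0.04), the proteasome (50 genes, -0.15), the insulin and growth hormone axis (26 genes, -0.18) and iron, haem and antioxidant genes (31 genes, -0.28) gave no calls with all fish. The iron list averaged 7.26 to 7.425 in females and 7.57 to 7.73 in males. Bile acid genes averaged 5.09 to 5.26 in females and 5.48 to 6.87 in males. Neither mean overlapped between the sexes. Iron list groups did not overlap for 5 genes with females below (against 3.30%) and 1 with females above (against 6.57%). Without males 11 and 66 the iron list held 2 lower calls, cholesterol synthesis 1 higher, and the insulin axis 1 of each. For fatty acid oxidation the list mean was 6.51 and 6.89 in males 11 and 66, 7.61 and 7.43 in males 26 and 30, and 6.82 to 7.20 in females. Without the first 2 males its median was -0.47 and 2 genes were called lower.

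No marker of another cell type was called with all 9 fish, and 1 leukocyte marker was called higher without males 11 and 66. For exocrine pancreas 20 of the 23 markers lay below 0 (median -1.46), and for intestine 25 of 28 (median -1.20), which without males 11 and 66 became 0.30 and 0.06. Prss1, a trypsinogen, read 11.58, 11.62, 11.10, 9.23 and 9.42 in females and 13.54, 10.71, 10.26 and 13.50 in males, so females 25 and 27 were the lowest of the 9. Insulin (ins) read 10.83 in male 66, 6.89 in male 26 and 4.26 to 5.06 in the other fish. Leukocyte markers (23 genes) averaged 4.93 to 5.47 in females and 4.81 to 6.15 in males, stromal markers (30 genes) 5.07 to 5.56 and 5.46 to 6.25, red cell markers (18 genes) 4.40 to 5.59 and 4.68 to 5.07, and muscle markers (33 genes) 3.89 to 4.62 and 3.86 to 4.48. The groups overlapped for each of these means.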

How the data were processed

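The comparison uses 1 table of the authors' deposited log2 values, 1 value per probe set and array, with the base of the logarithm judged from their size. MAS5, RMA, GCRMA and PLIER stand in the submitters' processing notes, and which of them was used is not given in the sources used here. Of 15617 probe sets 115 controls were left out. Platform annotation gave 1 symbol to 10795 of the 15502 tested, several to 135 and none to 4572, and 10711 were matched by Entrez ID. A gene is its brightest probe set with 1 symbol. Limma 3.58.1 in R 4.3.3 (lmFit, eBayes) was fitted to the 9 arrays with Benjamini-Hochberg adjustment over all probe sets, and was tested on simulated data. The number of arrays limits the precision. Named genes are the 20 highest and 20 lowest called differences, up to 4 called members per direction of each of 43 lists (the smallest p where none was called), the 4 brightest members of each cell type list and a few fixed genes; others are marked. The members, lists and rule were chosen with earlier results of these data known. Alternatives were other normalizations, fits, probe set choices, and leaving out each fish, or males 11 and 66 together. No sequence or genome coordinate was used.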

Additional observations from a re-analysis of the deposited data

Results flagged for a closer look

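In 14 of 218 checks of a named gene or marker list within a sex, 1 fish stood far from the others of its sex, 9 times a female and 5 times a male. Chance alone would give about 1 in 20 if the checks were independent. They share the same 9 fish, and many genes were picked because they were called, so this rate need not hold. Among the yolk and secretory genes, nots was 10.13 in female 25 against 10.93 to 11.25 in the other females, and eif2ak3 was 5.05 in female 27 against 5.46 to 5.62. Female 27 was also low for gnai2b, at 6.59 against 7.32 to 7.60, and for slc39a7, at 5.92 against 6.39 to 6.57. Aqp12 was 12.05 in female 10 against 11.35 to 11.55. Each of these genes was called higher in females, and no call was lost in any fit that left out 1 fish. Pck1 was 5.31 in female 10 against 2.55 to 2.74, and cyp2k22 was 6.10 in female 25 against 4.30 to 4.74. The oocyte gene npm2b was 4.93 in female 8 against 4.36 to 4.50, and the muscle marker mean was 4.62 in female 7 against 3.89 to 4.01.

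Among males, cd59a was 3.27 in male 11 against 8.16 to 8.98. Bckdk was 6.35 in male 66 against 7.03 to 7.16, and tpi1b was 9.93 in male 30 against 10.60 to 10.66. Hsp90ab1 was 11.32 in male 26 against 11.48 to 11.51, while the pancreatic marker c6ast1, below the array median in all 9 fish, was 2.41 in male 26 against 2.14 to 2.18.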

How the results depend on the processing

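No paired analysis was possible because the groups share no replicate numbers. The fit of all 17 arrays called 516 probe sets (352 higher), with 55 ribosomal protein and 14 ER translocation and folding genes. With the trend and robust settings of eBayes 219 were called (145 higher, 74 lower), with 15 ribosomal protein and 10 translation factor genes. Quantile normalization called 18 ribosomal protein and 18 ER translocation and folding genes. Without males 11 and 66 the counts were 99 higher probe sets, 5 ribosomal protein, 6 translation factor and 1 ER to Golgi gene. The cause of these changes was not tested. Leaving out 1 fish gave 117 to 257 probe sets (88 to 171 higher, 29 to 91 lower), 11 to 30 ribosomal protein, 7 to 14 translation factor, 3 to 9 ER translocation and folding, 4 to 5 ER to Golgi and 1 to 4 lower amino acid catabolism genes. The total moved by over 1.5 times without female 7 (134), 8 (117) or 10 (204) or male 11 (197), 30 (224) or 66 (224). The ribosomal protein count moved by as much without female 7 (15), 8 (11) or 10 (16) or male 11 (15), 26 (17) or 66 (16), and the translation factor count without female 7 (10) or 8 (7) or male 11 (8), 26 (9) or 66 (9). ER translocation and folding fell to 3 without female 7 or 8 or male 30, and lower amino acid catabolism calls to 2 without female 7 and to 1 without female 8 or male 11 or 26. The 3 yolk genes were called in every fit. Of 337 probe sets 99 were called in every fit that left out 1 fish, 78 of them higher. Of the 73 called genes named by rule, 60 to 70 were called under each alternative that kept all 9 fish, 37 to 55 without 1 fish and 35 without males 11 and 66. Calls lost in 5 to 9 of the 9 fits without 1 fish included rtn1a (6), pim2 (8), cpn1 (7), esr2b (7), dnajc3a (8), pdia3 (5), eif2s1b (6), eif4a1b (7), bckdk (7), cdo1 (6), gcsha (7), slc25a48 (6), slc34a2b (5), dgat1a (7), zfp36l1b (6), mknk2b (6), ier5 (8), sdha (7) and atp5mf (9). Without males 11 and 66 the exocrine pancreas (-1.46 to 0.30), intestine (-1.20 to 0.06) and glycolysis (-0.17 to 0.03) medians changed sign, as did prss1 (-1.41 to 0.11), and lower probe sets (130) outnumbered higher ones (99). With no detection calls, differences from values near the array median have no exact size.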
